A study of Mus musculus with 8 samples.

Results

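The ABC exporters of bile and drugs are ATP-driven pumps in the membrane of the hepatocyte. They comprised 10 genes here, 7 of the canalicular membrane (Abcb11, Abcb4, Abcb1a, Abcc2, Abcg2, Abcg5 and Abcg8) and 3 of the basolateral membrane (Abcc3, Abcc4 and Abcc6), out of 19938 genes read on the arrays. Members were taken by gene symbol. Each was represented by a probe set annotated to that symbol alone, and all 10 were measured, each through 1 probe set. Liver RNA came from 4 mice that express constitutively active IKK2 under the LAP promoter and from 4 wild type control mice, and each liver had its own Affymetrix array. Both groups were 4 weeks old and shared a background mixed from C57BL/6 and NMRI, crossed back to C57BL/6 for at least 4 generations. IKK2 is the kinase that switches on the transcription factor NF-kB, and LAP drives expression in hepatocytes. The labels do not say whether the transgenic animals descend from 1 founder. The comparison asks how exporter transcripts of each membrane differ when this kinase is active.

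Hepatocytes secrete bile across the canalicular membrane, which faces the small channel between neighbouring cells, and exchange solutes with blood across the basolateral membrane. Bile salts, phosphatidylcholine and cholesterol each leave through a dedicated canalicular pump, and conjugated bilirubin and drugs through others. Of the basolateral pumps, Abcc3 and Abcc4 return conjugates and bile salts to blood, and are known for rising when bile flow is blocked. Inflammation is known to alter the transcription of many hepatic transporters.

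Sequences next to the annotated start sites are shown for the exporters on which the results turn. RefSeq's table for GRCm38.p6 held windows of 300 bases, 250 before and 50 after a start, for 8 of the 10 genes, 12 windows in all, and none of Abcc3 or Abcc6. The stretch upstream of Abcb11 (chr2:69342617-69342716, minus strand) is shown for its inverted repeat, the type of site that the bile acid receptor FXR binds. Those of Abcb1a (chr5:8566991-8567090, plus strand) and Abcc4 (chr14:118706220-118706319, minus strand) belong to the exporters that rose; the Abcc4 stretch lies inside the gene's annotated span. For Abcg5 and Abcg8, which lie head to head on chromosome 17, all 109 bases between the Abcg5 start and the nearer Abcg8 start are given (chr17:84683012-84683120, plus strand). Capitals mark matches to the motifs named afterwards.
Abcb11: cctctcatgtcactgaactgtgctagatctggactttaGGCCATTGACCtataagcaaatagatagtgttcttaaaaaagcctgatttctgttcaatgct
Abcb1a: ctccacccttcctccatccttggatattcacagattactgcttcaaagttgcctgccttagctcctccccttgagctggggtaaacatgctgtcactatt
Abcc4: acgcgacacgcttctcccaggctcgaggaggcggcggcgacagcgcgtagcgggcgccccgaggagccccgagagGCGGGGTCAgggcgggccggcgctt
Abcg5-Abcg8: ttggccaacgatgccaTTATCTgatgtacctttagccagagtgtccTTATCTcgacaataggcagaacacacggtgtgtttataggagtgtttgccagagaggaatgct

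The motifs were searched on both strands, and no match in these windows overlapped a match of another motif. The inverted repeat GGNCANTGNCC, which reads the same on both strands, lay 62 to 52 bases before the Abcb11 start and stood in 1 of the 12 windows, against 0.676% of all 32851 promoter windows of this length. The antioxidant response element of the factor Nrf2, TGACNNNGC, stood in 4 windows, both of Abcc4 and those of Abcc2 and Abcb1a, against 12.4% of all windows. In the Abcc4 stretch shown it covers positions -25 to -17. The Abcb1a match, GCGGAGTCA, lies 27 to 35 bases after the start and so outside the stretch shown. The GATA site AGATAA occurs 2 times between Abcg5 and Abcg8. It stands in 2 of the 12 windows, 1 of each gene, against 11.2% of all windows, and these 2 windows share 209 bases. The kappaB consensus was found in 2 of the 12 windows, both among the 3 of Abcg2, against 8.46% of all windows. These are matches of letters, and binding was not measured.

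Exporter transcripts differed in both directions, and neither membrane moved as a block. The canalicular drug pump Abcb1a rose 2.20-fold and the basolateral pump Abcc4 rose 1.93-fold, while the canalicular sterol transporter gene Abcg5 fell 1.65-fold. Abcb11 and Abcb4, the pumps of bile salts and of phosphatidylcholine, had log2 fold changes of -0.06 and -0.11 that lay within the spread of the livers. A gene was called when its adjusted p was under 0.05 in limma, with Benjamini-Hochberg adjustment over all probe sets that have 1 symbol. By that measure 3 of the 10 exporters were called, against 6.34% of all genes, 2 of them higher (4.67% of all genes) and 1 lower (1.67%). At an unadjusted p under 0.05 in limma, 7 of the 10 passed, against 33.6% of all genes. Genes with bright probe sets are called more often: with genes split into 4 equal bins by mean level, the share was 10.7% in the brightest bin, which held 8 of the exporters, and 9.39% in the next, which held the other 2. The groups did not overlap for 4 exporters, Abcb1a, Abcc2, Abcg5 and Abcc4, against 22.4% of all genes.

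**Figure D1:**
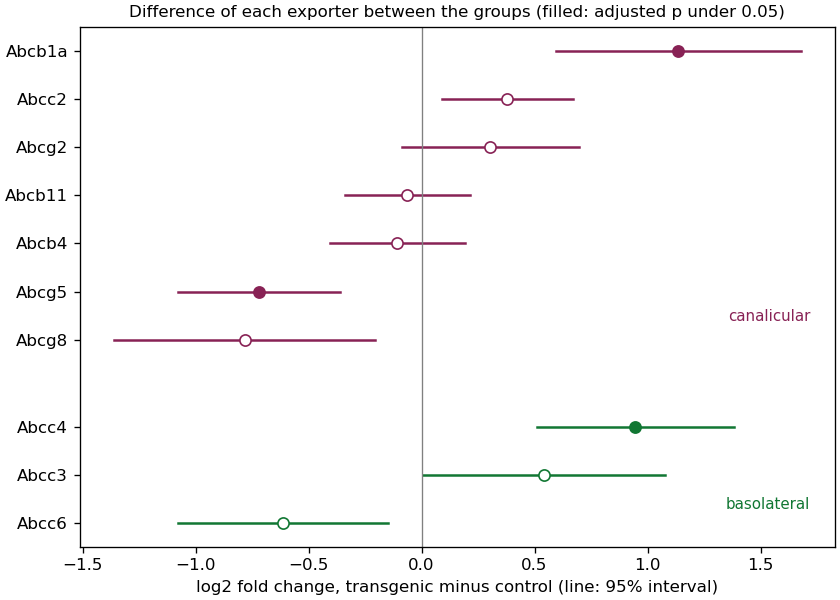
Log2 fold change (transgenic minus control, 4 against 4 livers) of each exporter on the x axis, with limma's 95% interval as a line; filled points have an adjusted p under 0.05. Canalicular exporters span -0.78 (Abcg8) to 1.14 (Abcb1a) and basolateral ones -0.61 (Abcc6) to 0.95 (Abcc4), so each membrane has points on both sides of 0.

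The 3 calls depend on which arrays are kept. All 3 were lost without transgenic replicate 1 (limma adjusted p from 0.0994 to 0.106), without control replicate 1 (0.0827 to 0.0924), 2 (0.0717 to 0.105) or 4 (0.0752 to 0.0791), and when limma was fitted to all deposited probe sets (0.0545 to 0.0641). Without control replicate 3, Abcc4 alone lost its call (0.0646), and without transgenic replicate 4, Abcc6 gained one as lower (0.0475). Their directions were the same in all 17 alternative settings.

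Bile salts drive bile flow, and Abcb11, the bile salt export pump, carries them into the canaliculus. In log2 values, and in the order of replicates 1 to 4 as throughout, it read 11.71, 11.53, 11.74 and 11.95 in transgenic livers. The controls read 12.01, 11.54, 11.77 and 11.87. The groups overlapped throughout, and replicate 2 was the lowest liver of each. The log2 fold change of -0.06 had a 95% interval from -0.34 to 0.21 (limma adjusted p = 0.725), and its sign turned when arrays were centred on their medians (0.02). Abcb4 flops phosphatidylcholine into bile, where it shields the duct lining from bile salts. Abcb4 read 10.12, 9.72, 9.72 and 9.998 in transgenic and 10.12, 9.73, 9.93 and 10.21 in control livers. These ranges also overlapped, at a log2 fold change of -0.11 with an interval from -0.40 to 0.19 (limma adjusted p = 0.572).

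Abcb1a, a multidrug resistance P-glycoprotein that expels bulky hydrophobic drugs, showed the largest difference of the 10. It read 7.41, 7.72, 6.89 and 6.82 in transgenic livers and 6.07, 5.93, 6.63 and 5.67 in controls. Every transgenic liver was above every control, with control replicate 3 nearest to the transgenic range. The log2 fold change was 1.14 (SE 0.24, limma adjusted p = 0.0323), and 2.23% of all genes had a higher one. Whether more cells or more RNA per cell carry a transcript cannot be told apart in whole liver. Abcb1b, the paralog with a closely similar product, read 4.75, 4.31, 3.87 and 3.80 in transgenic and 3.66, 3.59, 3.79 and 3.83 in control livers. These readings lie under every array median, and the log2 fold change of 0.46 was not called (limma adjusted p = 0.128). Whether the Abcb1a probe set also reads Abcb1b was not tested.

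Abcc2 and Abcg2 export conjugates and drugs at the canaliculus. Abcc2, which secretes conjugated bilirubin, read 11.82, 11.63, 11.48 and 11.47 in transgenic and 11.37, 10.88, 11.30 and 11.34 in control livers. The groups did not overlap, though transgenic replicates 3 and 4 lay close above control replicate 1. The log2 fold change of 0.38 (SE 0.13) did not pass the test (limma adjusted p = 0.0888), with a 95% interval from 0.09 to 0.67 before adjustment. Abcg2, the breast cancer resistance protein that exports sulphated conjugates and urate, read 9.65, 9.07, 8.88 and 9.15 in transgenic livers. Its control values were 9.06, 8.68, 8.66 and 9.13, and transgenic replicate 1 stood above the others. The difference of 0.30 on the log2 scale had an interval from -0.09 to 0.70 (limma adjusted p = 0.236).

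Abcg5 and Abcg8 encode the partners of a heterodimer that secretes cholesterol and plant sterols into bile. Abcg5 read 8.34, 8.71, 8.87 and 8.97 in transgenic and 9.65, 9.56, 9.09 and 9.48 in control livers. All transgenic livers lay below all controls, and the log2 fold change was -0.72 (SE 0.16, limma adjusted p = 0.0370). Abcg8 read 7.79, 7.52, 8.40 and 8.22 in transgenic livers and 9.23, 8.81, 8.07 and 8.95 in controls. The groups overlapped through control replicate 3, the lowest control for either gene of the heterodimer. Abcg8's log2 fold change of -0.78 was of similar size to that of Abcg5, but its SE of 0.26 was larger and it was not called (limma adjusted p = 0.0825). Only 1.08% of all genes had a lower log2 fold change than Abcg5 and 0.843% a lower one than Abcg8. The call of Abcg5 also ended when arrays were centred on their medians (limma adjusted p = 0.0579). The pair's starts are 109 bases apart, and the GATA matches printed above lie between them.

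**Figure D2:**
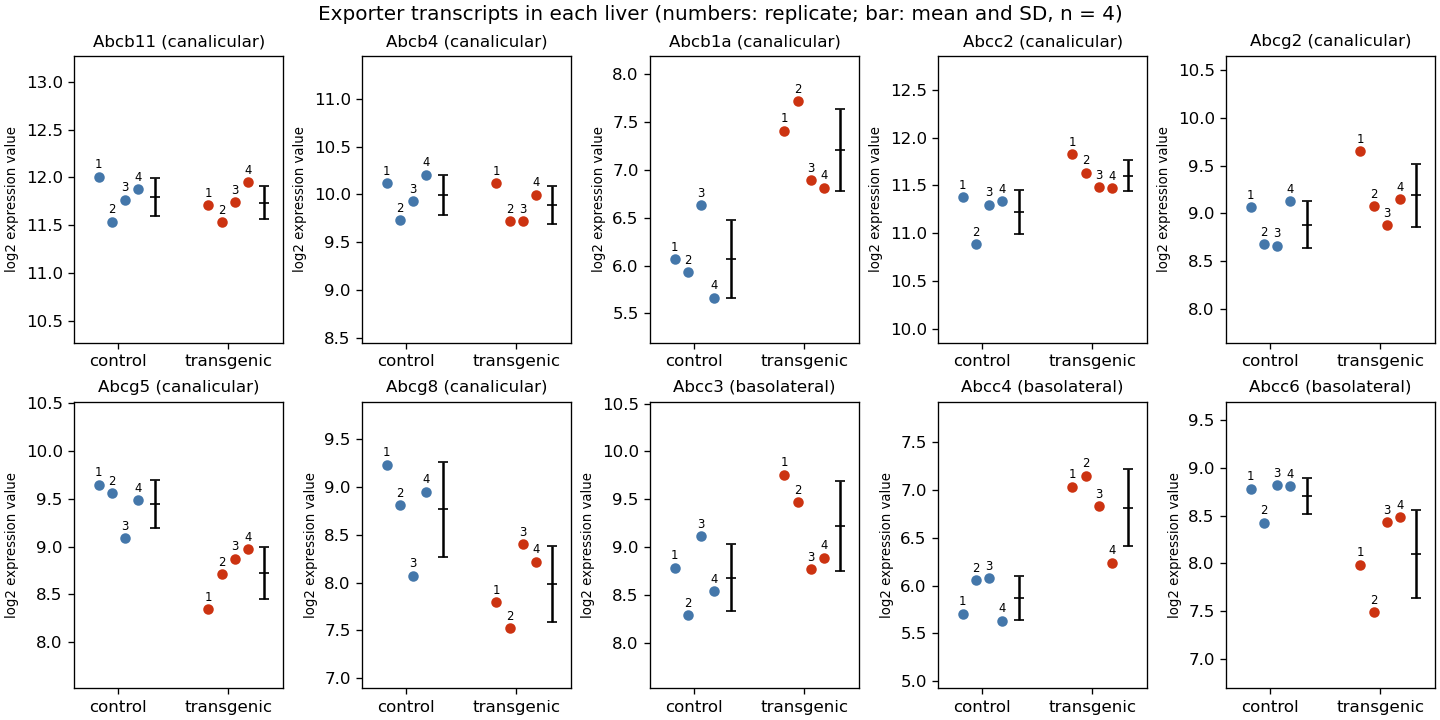
Log2 expression value (y axis, each panel spanning 3 units) of the 10 exporters in 4 control and 4 transgenic livers; points are livers numbered by replicate, and bars give mean and SD. Transgenic points lie apart from the controls for Abcb1a, Abcc2, Abcg5 and Abcc4 and overlap them for the other 6 exporters.

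At the basolateral membrane Abcc4 and Abcc3 return bile salts and glucuronides to blood. Abcc4, which cotransports bile salts with glutathione and also exports cyclic nucleotides, read 7.03, 7.15, 6.83 and 6.24 in transgenic livers. Its control values were 5.71, 6.05, 6.08 and 5.63, all below the transgenic ones. Transgenic replicate 4 lay nearest to the controls, and the log2 fold change was 0.95 (SE 0.19, limma adjusted p = 0.0294). Abcc3, an exporter of glucuronides, read 9.76, 9.47, 8.77 and 8.89 in transgenic and 8.78, 8.29, 9.11 and 8.54 in control livers. Only transgenic replicates 1 and 2 exceeded all controls, and the log2 fold change of 0.54 (SE 0.24) was not called (limma adjusted p = 0.148). Abcc6, whose loss causes the calcifying disease pseudoxanthoma elasticum and which mediates ATP release, went the other way. It read 7.99, 7.49, 8.43 and 8.48 in transgenic and 8.78, 8.43, 8.82 and 8.81 in control livers. Transgenic replicates 1 and 2 were below all controls and replicates 3 and 4 above the lowest, control replicate 2. The log2 fold change was -0.61 (SE 0.21, limma adjusted p = 0.0872).

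The membranes were then set against each other. The median log2 fold change was -0.06 over the 7 canalicular exporters, of which 3 were positive and 4 negative. It was 0.54 over the 3 basolateral exporters, of which 2 were positive, beside -0.07 over all genes. In the 2 brightest of the 4 bins by mean level, where all exporters lay, the medians over all genes were 0.06 and 0.04. No test was made on these medians, since the members were chosen with results known. To follow the membranes through the livers, each gene's log2 values were centred on its mean of the 8 arrays and averaged. The canalicular average was 0.09, -0.05, -0.04 and 0.04 in transgenic livers and 0.18, -0.16, -0.12 and 0.05 in controls. The basolateral average was 0.36, 0.14, 0.11 and -0.03 in transgenic and -0.14, -0.31, 0.10 and -0.24 in control livers. The canalicular values of transgenic livers lay inside the control range, whereas the basolateral groups overlapped only through control replicate 3 and transgenic replicate 4. The canalicular minus basolateral difference was -0.28, -0.19, -0.15 and 0.07 in transgenic livers and 0.32, 0.15, -0.22 and 0.29 in controls. The groups overlapped here as well, with control replicate 3 among the transgenic values.

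**Figure D3:**
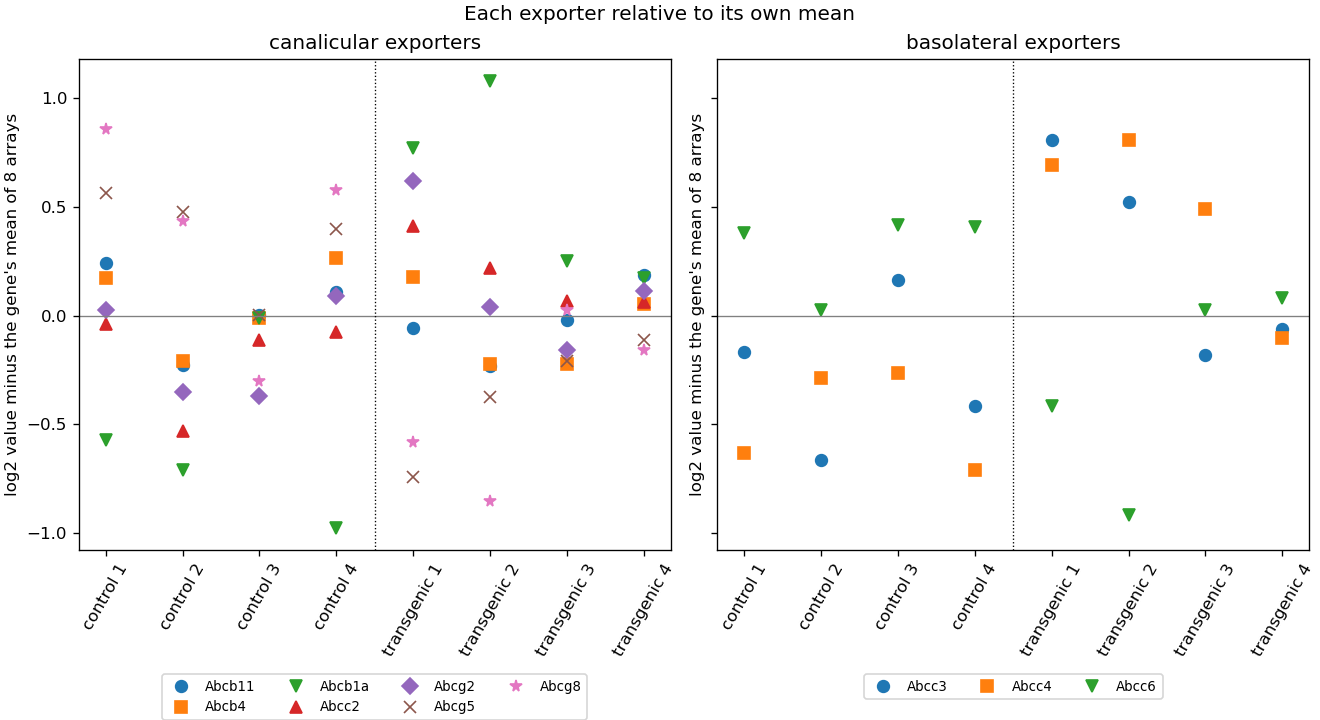
Log2 value of each exporter minus its own mean of the 8 arrays (y axis), by array (x axis), for the 7 canalicular (left) and 3 basolateral exporters (right); each symbol is a gene. Abcb1a and Abcc4 lie below 0 in controls and high in transgenic replicates 1 and 2, Abcg5 the reverse, likewise Abcg8 except in control replicate 3, and Abcb11 and Abcb4 stay close to 0.

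Among the 45 pairs of exporters, the closest patterns lay both within and across the membranes. It was measured as the root mean square difference between centred log2 values over the 8 arrays, where a low value means a similar pattern. The closest pair was Abcb11 and Abcb4 (0.134), canalicular exporters with little change, followed by Abcc2 and Abcg2 (0.180). Abcg5 and Abcg8 differed by 0.256, and Abcb1a of the canaliculus and Abcc4 of the basolateral membrane by 0.257. The median over all pairs was 0.507. These are descriptions over arrays that share a group difference, so any genes that differ alike between the groups score low. Over all genes, those nearest to Abcb1a were Ccnd1, the cyclin D1 of cell cycle entry (0.135), Dnmt1, the maintenance DNA methyltransferase (0.182), and Smim3 (0.183). Nearest to Abcc4 were Pf4, a platelet chemokine (0.115), Tmprss2, a membrane serine protease (0.125), and Mcm2, a subunit of the replicative helicase (0.150).

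The size of the difference varied among transgenic livers. Replicates 1 and 2 lay farthest in the direction of the group difference for 8 of the 10 exporters, all but Abcb4 and Abcg2. The same held for 55.7% of all genes and 82.1% of called genes, so the exporters share this with the arrays at large. Ikbkb, the gene of IKK2, read 8.995, 9.09, 8.38 and 8.38 in transgenic livers and 7.44 to 7.85 in controls (log2 fold change 1.00, limma adjusted p = 0.0185), and was likewise highest in replicates 1 and 2. Kupffer cell and macrophage markers averaged 9.23, 10.18, 9.17 and 8.87 in the same 4 livers. The part of either in the exporter values was not tested. Array medians ran from 4.88 to 5.08, and limma's array weights were lowest for transgenic replicate 2 (0.278) and control replicate 2 (0.556). Precision is limited by the number of arrays, and background was not measured.

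The rest of the ABC family was read through a list of its own. Of 41 measured, 4 rose, 2 fell and 35 were not called, beside 6.34% of all genes called, and the median log2 fold change was -0.07. An unadjusted p under 0.05 in limma was reached by 19 of the 41, against 33.6% of all genes. The 4 that rose were Abcg3 at 1.88, Abca9 at 1.42, Tap2, which loads peptides onto class I molecules, at 0.83, and Abcc9, a subunit of ATP-sensitive potassium channels, at 0.65. The 2 that fell were Abcb6, a porphyrin transporter, at -0.69, and the mitochondrial Abcb10 at -0.44. Abcc9 and Abcb10 were named after their values were seen. Abcg3 and Abca9 kept their calls in all alternatives that tested them. The calls of Tap2, Abcb6 and Abcb10 were lost without transgenic replicate 1 and without any of the 4 controls. That of Abcc9 was lost without transgenic replicate 1 or control replicates 1, 2 or 3. With all deposited probe sets, Tap2 (limma adjusted p = 0.0577), Abcb6 (0.0781) and Abcc9 (0.0534) were not called. Centring on array medians ended the calls of Abcb6 (0.0596) and Abcb10 (0.0539). Counting the replicate block given further below, Tap2, Abcb6, Abcb10 and Abcc9 held in 10, 9, 11 and 12 of 17 alternatives. The list of canaliculus partners, such as flippases, scaffolds and junction proteins, also held Slc51a and Slc51b of a basolateral bile salt transporter. None of its 17 measured genes was called by limma as fitted here (median -0.08), beside 6.34% of all genes. Of the 17, 6 had an unadjusted p under 0.05 in limma, against 33.6% of all genes. Slc51b had a log2 fold change of 1.16 (limma adjusted p = 0.0975) and Slc51a one of -0.26 (0.200). Slc51b read 6.75, 7.68, 5.39 and 5.74 in transgenic and 5.11, 5.45, 5.31 and 5.03 in control livers, so the groups overlapped. Readings of Slc51a, 3.20 to 4.05, lay under every array median. The smallest p of the list belonged to the tight junction protein Cldn1 (log2 fold change -0.74, limma adjusted p = 0.0538). Cldn1 was called as lower in 9 of 17 alternatives, among them quantile normalization (0.0496), array weights (0.0266) and the fits without transgenic replicates 2, 3 or 4 (0.0313, 0.0447 and 0.0303).

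The genes around the exporters were given by 3 further lists. Of 14 measured regulators, mainly nuclear receptors, 1 fell and 13 were not called (median -0.06), beside 6.34% of all genes called. At an unadjusted p under 0.05 in limma, 4 of the 14 passed, against 33.6% of all genes. The 1 that fell was Nr0b2, the FXR-induced repressor SHP, at -0.91 (SE 0.21, limma adjusted p = 0.0403). Its call held in 10 of 17 alternatives and was lost after centring on array medians (0.0679), with all deposited probe sets (0.0697), without transgenic replicate 1 (0.110) and without any of the 4 controls (0.0607 to 0.112). Bile acid uptake and synthesis genes had a median of -0.43, with 14 of 17 negative, where 61.6% of all genes were negative. Limma called 1 of these 17 genes, beside 6.34% of all genes, and 9 had an unadjusted p under 0.05, against 33.6%. The 1 called was Slco1a1, a basolateral anion uptake carrier, at -5.47 (limma adjusted p = 0.00651). Genes controlled by Nrf2, mainly enzymes, had a median of 0.28, with 7 of 9 positive, where 38.4% of all genes were positive. Gclm and Gclc were the negative ones, at -0.34 (limma adjusted p = 0.104) and -0.18 (0.387). These sign shares over all genes include dim probe sets. In the 4 bins by mean level the median over all genes was 0.06 in the brightest, 0.04 in the next, and -0.17 and -0.10 in the dimmer ones. All 17 bile acid genes and 8 of the 9 Nrf2 genes, all but the transporter Slc7a11, lay above the array medians in controls. Limma called 1 of the 9 genes, beside 6.34% of all genes. An unadjusted p under 0.05 was reached by 4 of the 9, with Gclm among them, against 33.6% of all genes. The gene called was Hmox1, which degrades heme and is also expressed by macrophages, at 1.36 (limma adjusted p = 0.0258). Its call was lost without transgenic replicate 1 (0.0921) and without any of the 4 controls (0.0676 to 0.0841).

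**Figure D4:**
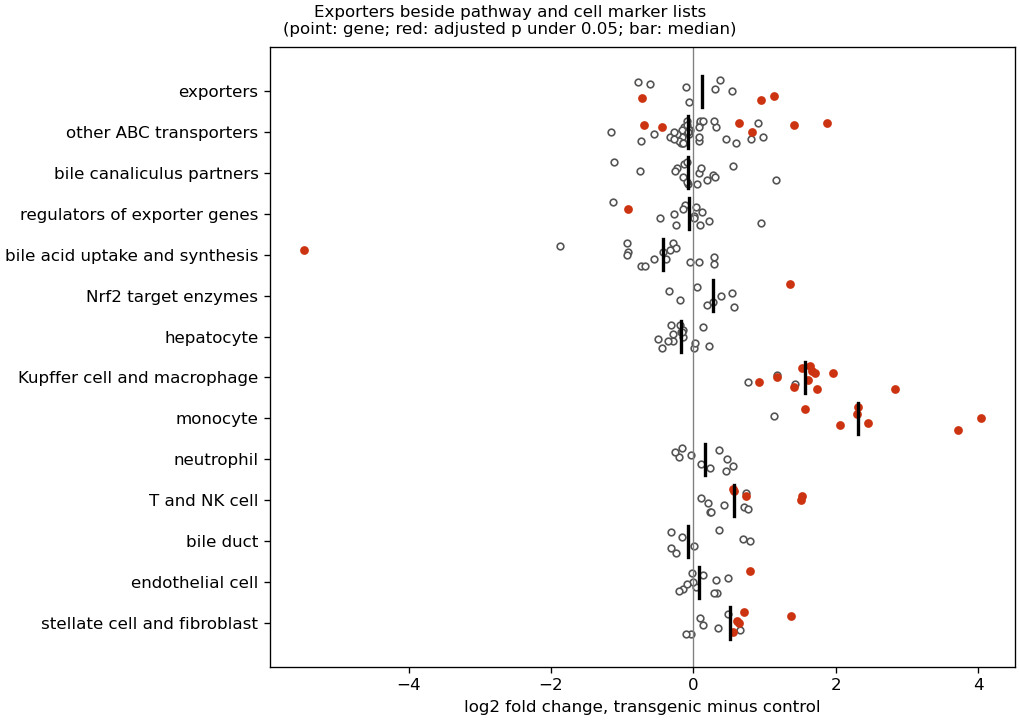
Log2 fold change (x axis) of each gene in the exporter set and in 13 lists (rows); a point is a gene, red points have an adjusted p under 0.05, and black bars are medians. The exporters straddle 0 with a median of 0.12, while macrophage and monocyte markers lie to the right (medians 1.57 and 2.31).

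Cell markers showed which other transcripts differed in the same livers. For the counts that follow, 4.67% of all genes were called higher and 1.67% lower. Of all genes, 33.6% had an unadjusted p under 0.05 in limma. Hepatocyte markers were all above the array medians in controls and averaged 11.8 to 12.2 in transgenic and 12.1 to 12.2 in control livers. Limma called none of 15 (median -0.17; 4 at an unadjusted p under 0.05), and Tdo2 had the smallest p, at -0.49 (limma adjusted p = 0.0875). Of 14 Kupffer cell and macrophage markers, 11 rose (median 1.57), with list averages of 8.87 to 10.18 in transgenic and 7.69 to 8.07 in control livers. Lyz2 rose the most, by 2.84. Of 8 monocyte markers 7 rose (median 2.31), with averages of 7.14 to 8.68 against 5.23 to 5.36, Cybb leading at 4.04. T and NK cell markers rose for 5 of 13 (median 0.57), averaging 5.03 to 5.81 against 4.602 to 4.71, with Cd3g at 1.53. Stellate cell and fibroblast markers rose for 5 of 12 (median 0.52; averages 7.83 to 8.19 against 7.39 to 7.77), with Lum at 1.36. Of 12 endothelial markers only Stab1 rose, by 0.80 (median 0.08; averages 8.03 to 8.18 against 7.74 to 8.07). Limma called none of 8 bile duct markers (median -0.07, 4 at an unadjusted p under 0.05, averages 5.94 to 6.20 against 5.81 to 6.04). Of the 8, 4 had a positive log2 fold change. The smallest p was that of Cdh1, at 0.69, while Krt19 and Krt7 stood at -0.25 and -0.16. Limma called none of 10 neutrophil markers either (median 0.17, 2 at an unadjusted p under 0.05, averages 4.19 to 4.90 against 4.17 to 4.38), and Ltf came nearest, at 0.23. Only 1 of these 10 lay above the array medians in controls. The average of 4.90 was that of transgenic replicate 2, with 4.19 to 4.37 in the other transgenic livers. No marker can be called absent without a background. The part of these cells in the exporter differences was not tested.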

How the data were processed

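The authors deposited 1 log2 value per probe set and array. Per the submitters' processing notes the tool was Affymetrix Expression Console. The sources used here give neither its version nor how arrays were normalized. Base 2 was read from the values (maximum 14.1). Of 35556 probe sets, 21789 have 1 gene symbol, 1621 several and 12146 none, per GEO's platform annotation; 21698 matched GRCm38.p6 by Entrez identifier, which changed 0 symbols. Limma 3.58.1 (R 4.3.3) was fitted to all 21789 with the group as its only term, two-sided, with Benjamini-Hochberg adjustment. A gene was read through its probe set with the highest mean of the 8 arrays. Intervals use limma's moderated SE. The replicates are separate animals per the labels.

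The members and lists were chosen with earlier results of these data known. Named genes are the members, Ikbkb, the 4 called genes with the largest change in each pathway list (1 in each cell marker list), or the gene with the smallest p where none was called, and the 3 genes nearest in pattern to the most changed exporter of each membrane, with predicted genes passed over. Abcb1b, Abcc9, Abcb10, Slc51a, Slc51b, Krt19, Krt7 and the genes of the other observations were added after their values were seen. Tested on simulated data of 21789 probe sets, limma recovered 47 of 50 changes of 2, 49 of 50 of -2, 44 of 50 of 1 and 43 of 50 of -1, with 12 false calls. The simulated noise was independent between probe sets and alike in all arrays, whereas the array weights here ran from 0.278 to 2.30. Recovery in the real data can therefore differ from these counts. Alternatives changed the scaling, the filter on dim probe sets, the probe sets tested or averaged, the moderation, the array weights, the replicate block and the arrays kept.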

Additional observations from a re-analysis of the deposited data

Results flagged for a closer look

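In groups of 4 livers, 1 liver stood apart from the other 3 by Dixon's criterion in 7 of 72 groups examined; chance alone gives about 1 in 20. Among the exporters, control replicate 2 read 10.88 for Abcc2 against 11.30 to 11.37 in the other controls, and 8.43 for Abcc6 against 8.78 to 8.82. Transgenic replicate 2 read 6.34 for Abcb10 against 6.58 to 6.62 in the other transgenic livers, and 7.14 for Abcg3 against 5.76 to 5.97. Transgenic replicate 3 read 7.24 for Lum against 7.70 to 7.72. For Slco1a1, transgenic replicate 4 read 5.54 against 3.46 to 3.79. Control replicate 3 read 6.31 for Tmprss2 against 5.92 to 5.98.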

How the results depend on the processing

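Over 17 alternatives the direction of 9 exporters held; that of Abcb11, not called in any, turned positive when arrays were centred on their medians (0.017), without transgenic replicate 2 (0.0042) and without control replicate 1 (0.0073), over a range of -0.15 to 0.0073 with 1 array left out. Counts of called genes moved more. Over all genes 932 were higher and 333 lower, so that 73.7% of calls were higher, against 62.6% after quantile normalization and 86.4% after centring. Quantile normalization gave 638 lower, array weights 501 lower, centring on medians 618 higher and 97 lower, and a fit to all deposited probe sets 425 higher and 54 lower. Of the exporters, 0 were called lower after centring, and 0 higher and 0 lower with all deposited probe sets, a fit that changes the moderation and the number of tests together. Array weights moved the basolateral median to 0.35. Leaving out 1 array at a time gave 0 to 2 exporters higher, 0 to 2 lower, 192 to 1636 genes higher, 3 to 944 lower, and basolateral medians of 0.36 to 0.69. With the replicate number as a block (replicate block), 0 exporters were called lower, Abcg5 having an adjusted p of 0.0680, and 174 genes were lower. Tap2 (limma adjusted p = 0.0502) and Abcb6 (0.0547) lost their calls in that fit. Deviations of same-numbered livers correlated at 0.243, -0.03, 0.256 and -0.129 for replicates 1 to 4, so the numbers were not taken to pair animals. Beyond these values the causes were not tested. No measure of background was used, and 4 livers a group limit what can be called.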

Other observations

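The ABCA genes in a row on chromosome 11 went different ways. Abca8b, Abca8a, Abca9, Abca6 and Abca5 follow each other there with no other protein-coding gene between them in the GRCm38.p6 annotation. Abca9 read 7.16, 7.71, 6.77 and 6.80 in transgenic and 5.74, 5.28, 6.03 and 5.73 in control livers, a log2 fold change of 1.42 (SE 0.22, limma adjusted p = 0.0112). Its neighbour Abca8a read 8.78, 7.88, 9.41 and 9.49 in transgenic and 10.03, 9.66, 10.11 and 10.37 in control livers, a log2 fold change of -1.15 (SE 0.32) that was not called (limma adjusted p = 0.0599). Abca8b stood at -0.73 (limma adjusted p = 0.0750), Abca6 at -0.20 (0.416) and Abca5 at -0.08 (0.618). The products of this cluster are thought to handle lipids. Abcc1, a basolateral conjugate exporter outside the 10 genes, read 6.05, 6.95, 5.42 and 5.62 in transgenic and 5.23, 4.85, 5.03 and 5.03 in control livers, a log2 fold change of 0.97 that was not called (limma adjusted p = 0.0635). Abca9, Abca8a and Abcc1 have groups that do not overlap, as do 22.4% of all genes. All 3 were picked after their values were seen.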
